A study of Mus musculus with 14 samples.

Results

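The genes that move calcium out of the cytosol were followed in mouse spinal cord: the plasma membrane calcium pumps (PMCA, Atp2b1 to Atp2b4), the sarco/endoplasmic reticulum calcium pumps (SERCA, Atp2a1 to Atp2a3) and the sodium-calcium exchangers (NCX, Slc8a1 to Slc8a3). The 10 genes were taken by symbol from the 19215 genes of the whole spinal cord (WSC) RNA-seq tables, and their cassette exons, 12 of 13189, by the gene identifier in the exon name. These 12 exons lie in 8 of the genes, with none listed for Atp2b2 and Slc8a3. The study compared where NOVA, a neuronal splicing regulator, binds RNA in motoneurons (MN) and in the whole cord. Binding was read by HITS-CLIP, in which RNA crosslinked to the protein by UV light is purified with an antibody and sequenced. MN CLIP used anti-GFP antibodies on pooled cords of 3-month-old hemizygous Chat:GFP-Nova #6 and #17 mice (C57BL/6, 4 libraries each), in which the Chat promoter drives GFP-tagged NOVA2 in cholinergic neurons. WSC CLIP used anti-Nova sera against the endogenous protein in 3-month-old wild-type C57BL/6 cords (4 libraries). WSC RNA-seq was made from the cords of a male (replicate 1) and a female (replicate 2) 12-week-old Tg(SOD1)2Gur/J mouse (B6/SJL), which carry a wild-type human SOD1 transgene. Between MN and WSC CLIP, the cell type, the antibody, tagged NOVA2 against endogenous NOVA and the pooling of animals therefore cannot be told apart.

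A resting cell keeps its cytosolic calcium far below that outside. PMCA pumps use ATP to export calcium across the plasma membrane and are switched on by calmodulin, which binds their C-terminal tail. SERCA pumps return calcium to the endoplasmic reticulum, and NCX proteins export calcium in exchange for sodium, with low affinity but high capacity, so that they matter most after large calcium loads such as those of firing neurons. Spinal motoneurons of the large, fast type hold little calcium-binding protein, and their calcium handling has long been studied for that reason.

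The MN CLIP libraries held 65961 to 871804 unique reads and the WSC CLIP libraries 2213104 to 6095995, of which 72.4% to 78.0% and 80.7% to 81.5% lay on the strand and span of exactly 1 protein-coding gene. The RNA-seq libraries held 72006019 (male) and 65625173 (female) reads on genes. Against the labels, the motoneuron markers Chat, Slc5a7 and Chodl had log2 fold changes of CLIP reads of 3.08, 2.21 and 2.48 in MN over WSC, although Chat is also the gene whose promoter drives the transgene. All 4 inhibitory neuron markers (Slc6a5, Slc32a1, Gad1, Gad2) were lower in MN, with log2 fold changes from -4.36 (Slc6a5) to -2.14 (Gad2).

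Seen in RNA-seq, 8 of the 10 genes were expressed in the cord at 1 RPKM (reads per kilobase of exon, scaled to the reads of the library) or more, and each family was led by 1 or a few members. Atp2a2 (SERCA2, the pump of the endoplasmic reticulum in most tissues) was the highest, with 191 RPKM in the male and 183 RPKM in the female library (mean 187 ± 5.48, SD, n = 2), and ranked 225 of all genes by mean RPKM. It made up 99.6% and 99.7% of the summed RPKM of the SERCA genes. Atp2a3 (SERCA3) was listed at 0.656 and 0.402 RPKM, from 213 and 119 reads. Atp2a1 (SERCA1, the pump of fast skeletal muscle) was at 0.0940 and 0.0583 RPKM, from 23 and 13 reads. Both libraries thus placed the other two SERCA genes under 1 RPKM. Skeletal muscle markers were near 0 as well, their 6 genes summing to 0.895 and 1.17 RPKM with Myh4 at 0 reads in both libraries, and the 3 platelet markers summed to 0.876 and 2.08 RPKM.

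Among the plasma membrane pumps, Atp2b2 (PMCA2, a fast pump found mainly in neurons and hair cells) led with 65.7 and 59.8 RPKM in the male and female libraries. Atp2b1 (PMCA1, made in nearly all cells) followed at 39.0 and 39.1 RPKM, and Atp2b3 (PMCA3, a fast neuronal pump) at 38.7 and 31.3 RPKM. Atp2b4 (PMCA4, a slower, widespread pump) was the lowest, at 14.0 and 10.002 RPKM. Their shares of the summed PMCA level in the male and female libraries were 41.7% and 42.6% for Atp2b2 and 24.7% and 27.9% for Atp2b1. For Atp2b3 they were 24.6% and 22.3%, and for Atp2b4 8.90% and 7.14%. Summed over its 4 genes, the PMCA family stood at 149 ± 12.2 RPKM (SD, n = 2).

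Of the exchangers, Slc8a1 (NCX1, best known from heart) and Slc8a3 (NCX3, of brain and skeletal muscle) were close, at 16.6 and 14.3 RPKM and at 14.2 and 13.1 RPKM. Slc8a2 (NCX2, the exchanger of brain) was lower, at 5.96 RPKM in the male and 3.34 RPKM in the female library. The family summed to 33.7 ± 4.23 RPKM (SD, n = 2). Ordered by mean RPKM, the genes ran Atp2a2, Atp2b2, Atp2b1, Atp2b3, Slc8a1, Slc8a3, Atp2b4, Slc8a2, Atp2a3 and Atp2a1. Only the values of Slc8a3 and Atp2b4 overlapped among neighbours in that order, while Atp2b1 and Atp2b3 were split by 39.0 against 38.7 RPKM and Slc8a1 and Slc8a3 by 14.3 against 14.2 RPKM, differences smaller than the spread between the 2 libraries of Atp2b3 and Slc8a1.

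**Figure D1:**
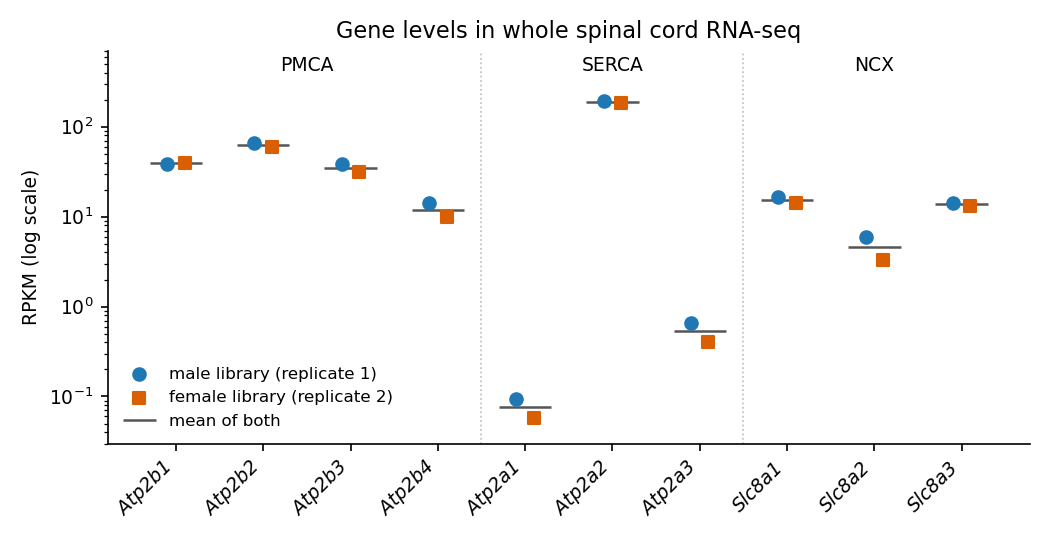
RPKM of the 10 genes (log scale) in the male (circles) and female (squares) WSC RNA-seq libraries, with the mean as a line. Atp2a2 stands highest near 187 RPKM, and Atp2a3 and Atp2a1 lie below 1 RPKM.

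The 2 libraries were compared by size only, since 1 mouse of each sex gives no test. Of the 8 members at or above a mean of 1 RPKM, 1 was past 1.5-fold, Slc8a2, 1.79-fold higher in the male library, against 2.35% of the 11940 genes at that level that were past 1.5-fold in that direction. Atp2b4 came next, with a ratio of 1.40, and the median ratio was 1.13 over these 8 members and 1.00 over all genes. The value was larger in the male library for 7 of these 8 members and for 51.3% of all genes at that level, Atp2b1 being the exception among the members with a ratio of 0.996. Marker sums moved between the same libraries: motoneuron markers summed to 84.0 and 116 RPKM, inhibitory neuron markers to 203 and 198 RPKM, and erythrocyte markers to 96.5 and 39.3 RPKM in the male and female library. Their part in the ratio of Slc8a2 was not tested, and in bulk tissue fewer cells of a type and less RNA per cell cannot be told apart.

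The wider calcium machinery was read from a list of 38 related genes, 35 of which were found in the tables and 30 of which were at 1 RPKM or more. Calm2 and Calm3, which encode calmodulin, were at 966 ± 66.6 and 684 ± 43.7 RPKM (SD, n = 2). Bsg and Nptn (basigin and neuroplastin, partner subunits of PMCA) stood at 245 ± 1.80 and 80.1 ± 1.84 RPKM. Calr (calreticulin, the calcium buffer of the endoplasmic reticulum) stood at 229 ± 14.1 RPKM, whereas Pln and Sln, the small SERCA inhibitors of muscle, were at 0.155 and 0.0801 RPKM. Of the intracellular release channels Ryr2 and Itpr1 were highest, at 12.6 ± 0.493 and 10.8 ± 1.04 RPKM. Atp2c1, the calcium pump of the Golgi, was at 33.5 ± 2.38 RPKM, and Slc24a2, a potassium-dependent exchanger, at 66.2 ± 0.959 RPKM, above each of the NCX genes. Smdt1, a subunit of the mitochondrial uniporter, was at 140 ± 1.24 RPKM, and Stim2, a calcium sensor for store-operated entry, at 18.1 ± 0.389 RPKM.

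NOVA CLIP reads on the same genes were compared between MN and WSC with edgeR's quasi-likelihood test on reads per gene (false discovery rate 0.01, Benjamini-Hochberg over all 4536 genes tested). Of the 7 members tested, 4 were lower in MN, Atp2b3, Atp2b4, Slc8a1 and Atp2a2, and none was higher, against 29.2% of all genes tested that were lower and 27.6% that were higher. The median log2 fold change was -0.35 over the 7 members and -0.02 over all genes tested. Atp2a1, Atp2a3 and Slc8a2 had too few reads to be tested, with 1, 0 and 27 reads in all MN libraries together and 0, 7 and 249 in WSC.

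Atp2b3 had between 97.5 and 244 normalised CPM (CLIP reads on the gene, scaled to the reads of the library on all genes) in the 8 MN libraries (median 173) and 271, 262, 248 and 257 in WSC replicates 1 to 4. No MN library reached the lowest WSC library. The log2 fold change was -0.60 ± 0.11 (SE, adjusted p = 2.05e-05). For Slc8a1 the MN libraries ran from 514 to 778 (median 630) and the WSC libraries stood at 866, 913, 907 and 937, again without overlap, with a log2 fold change of -0.55 ± 0.10 (SE, adjusted p = 6.76e-06). For Atp2a2 they ran from 631 to 1011 (median 857) against 1079, 1099, 1036 and 1087 in WSC, also without overlap, and the log2 fold change was -0.35 ± 0.10 (SE, adjusted p = 0.00222). All MN libraries lay below all WSC libraries in this way for 16.2% of the genes tested. The groups did overlap for Atp2b4, at 78.7 to 141 (median 111) in MN and 158, 138, 146 and 127 in WSC, with a log2 fold change of -0.58 ± 0.14 (SE, adjusted p = 0.000678) from 144 MN reads in all.

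The other 3 members did not pass the test. Slc8a3 stood at 181 to 530 (median 344) in MN and at 429, 440, 432 and 440 in WSC (log2 fold change -0.30 ± 0.11, SE, adjusted p = 0.0129). Atp2b2, which carried more CLIP reads than any other member, stood at 1379 to 1892 (median 1444) in MN and at 1332, 1458, 1298 and 1466 in WSC (0.11 ± 0.10, adjusted p = 0.324). Atp2b1 stood at 198 to 685 (median 276) in MN and at 240, 244, 250 and 220 in WSC (0.27 ± 0.13, adjusted p = 0.0721). The highest of these Atp2b1 values came from line 17 replicate 1 with 34 reads, and without that library the log2 fold change was 0.16 (adjusted p = 0.145). Slc8a3 would be called lower with the MN libraries of replicates 3 and 4 only (-0.37, adjusted p = 0.00439), whose barcode design and sequencing instrument are those of the WSC libraries, with DESeq2 (-0.34, adjusted p = 0.00130) or its size factors (-0.34, adjusted p = 0.00666), with no filter on low counts (-0.53, adjusted p = 9.42e-05), or without line 17 replicate 2 (-0.39, adjusted p = 0.00122), while the 4 members called lower all passed with MN replicates 3 and 4 only (adjusted p from 3.51e-06 for Slc8a1 to 0.00679 for Atp2a2). Atp2b4 would lose its call with the replicate number as a block over MN and WSC libraries alike (-0.49, adjusted p = 0.0156), without line 6 replicate 3 (-0.47, adjusted p = 0.0113) or line 17 replicate 4 (-0.45, adjusted p = 0.0255).

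**Figure D2:**
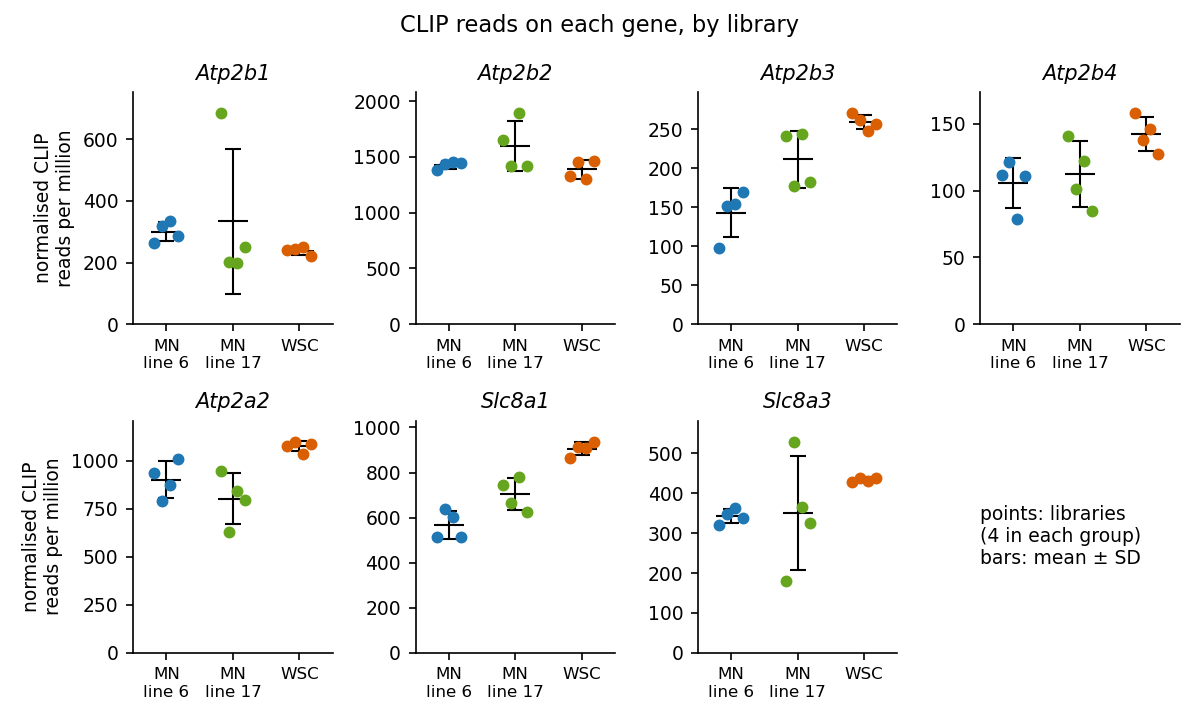
Normalised CPM of CLIP reads on 7 genes in the 4 libraries of MN line 6, MN line 17 and WSC (points), with mean ± SD as bars. All MN points lie under the WSC points for Atp2b3, Atp2a2 and Slc8a1, and 1 line 17 library stands far above the others for Atp2b1.

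Lines 6 and 17, which carry the same transgene, gave no gene past the threshold when compared with each other by the same test, with 220 of 4536 genes at an unadjusted p under 0.05. Among the members, the largest difference between the lines was that of Atp2b3 (log2 fold change of line 6 over line 17 -0.35 ± 0.20, SE, adjusted p = 0.985). Taken alone against WSC, line 17 gave adjusted p values of 0.00905, 0.00625, 0.00281 and 0.00194 for Atp2b3, Atp2b4, Slc8a1 and Atp2a2, while line 6 gave 0.000104 and 1.67e-05 for Atp2b3 and Slc8a1 but 0.0177 for Atp2b4 and 0.0796 for Atp2a2.

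The members differed in whether their reads lay on exons or introns. Over all genes, 33.4% to 46.4% of the reads of an MN library and 60.9% to 66.2% of those of a WSC library lay on annotated exons. For Atp2b3 the share was 8.33% to 39.8% (median 24.4%) in MN and 68.9% to 75.5% in WSC. Atp2b1 went from 60.5% to 66.8% in WSC down to 21.1% to 50% in MN, Slc8a3 from 46.1% to 56.3% down to 8.70% to 37.5%, Atp2b4 from 88.6% to 90.2% down to 50% to 85.7%, and Slc8a1 from 11.1% to 14.5% down to 2.27% to 5.88%. In these 5 members of 7, every MN library had a lower exonic share than every WSC library, which held for 32.5% of all genes tested. Atp2a2 kept its reads on exons in both, at 90.6% to 100% in MN and 93.9% to 95.3% in WSC, and Atp2b2 ranged from 74.4% to 85.3% in MN and from 84.95% to 89.1% in WSC. For Slc8a1 the annotation used to split the reads holds 3068 nt of exon, while the RNA-seq tables give its exons 18683 nt, so part of its reads outside annotated exons can lie in exons that this annotation lacks.

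**Figure D3:**
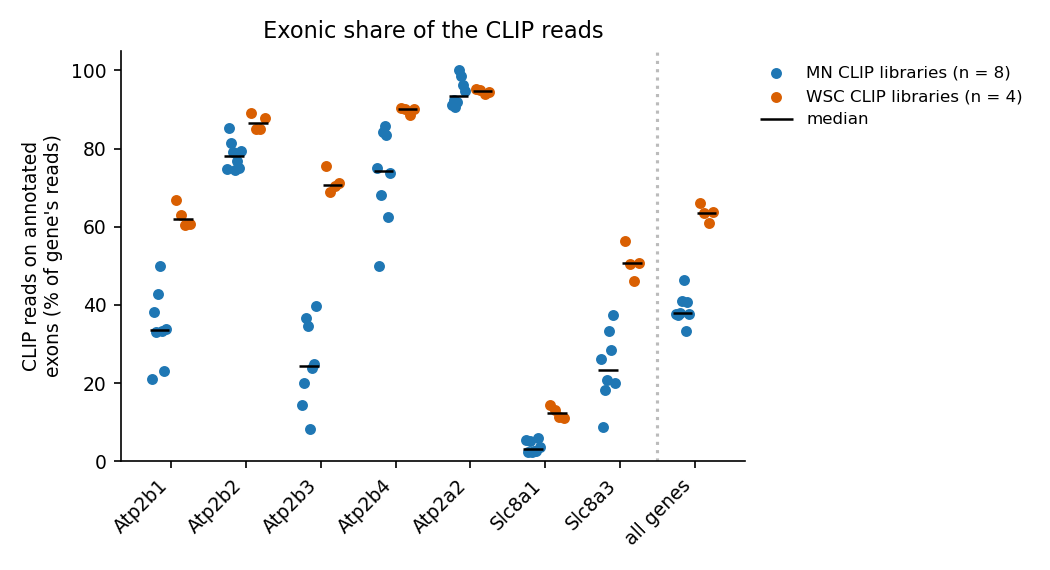
Percentage of each gene's CLIP reads on annotated exons in the 8 MN (blue) and 4 WSC (orange) libraries, with medians as lines, for 7 genes and for all genes together. Atp2a2 stays above 90% in both groups, while Atp2b3 drops from a median of 70.7% in WSC to 24.4% in MN.

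When exonic and intronic reads were tested apart, each scaled to its own total, the sign for Atp2a2 turned. Its exonic reads were higher in MN (log2 fold change 0.40, adjusted p = 0.00183) and its intronic reads lower (-1.001, adjusted p = 8.2e-06) than in WSC. Of all its reads 93.6% in MN and 94.6% in WSC were exonic, so the fits of all reads and of exonic reads rest on nearly the same reads, and the sign turned with the total they were scaled to. Since the exonic share of all genes was lower in MN, a change in exonic reads is relative to the exonic reads of other genes only. Exonic reads of Atp2b2 were also higher in MN (0.72, adjusted p = 2.25e-06), and those of Atp2b3 (-0.94, adjusted p = 3.02e-05), Slc8a1 (-1.50, adjusted p = 1.59e-06) and Slc8a3 (-0.80, adjusted p = 0.000252) were lower. Thus 2 members were higher and 3 lower of the 7 tested, against 24.0% and 24.2% of the 2249 genes tested in exons. Exonic reads of Atp2b4 and Atp2b1 did not pass (-0.11 and 0.21, adjusted p = 0.599 and 0.328). Outside annotated exons, 3 of the 6 members tested were lower in MN and none higher, against 15.6% and 12.0% of the 2714 genes tested. The 3 were Slc8a1 (-1.30, adjusted p = 3.62e-16), Slc8a3 (-0.52, adjusted p = 2.16e-05) and Atp2a2. Intronic reads of Atp2b1, Atp2b2 and Atp2b3 had log2 fold changes of 0.18, -0.16 and -0.24 (adjusted p = 0.276, 0.261 and 0.203). Slc8a3 was thus lower in MN in both classes, and Atp2b3 in exonic reads. Slc8a1 had negative log2 fold changes in both, but its exonic value rests on 36 MN reads against 1669 in WSC. Its exonic reads passed the filter on low counts through WSC, where they are higher, so that call is no separate support. The split is unsure for Slc8a1, of whose reads 3.81% in MN and 12.6% in WSC lay on annotated exons. Its fits of all reads (-0.55) and of intronic reads (-1.30) rest largely on the same reads, scaled to different totals. The size of its intronic change is thus relative to the intronic reads of other genes only.

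**Figure D4:**
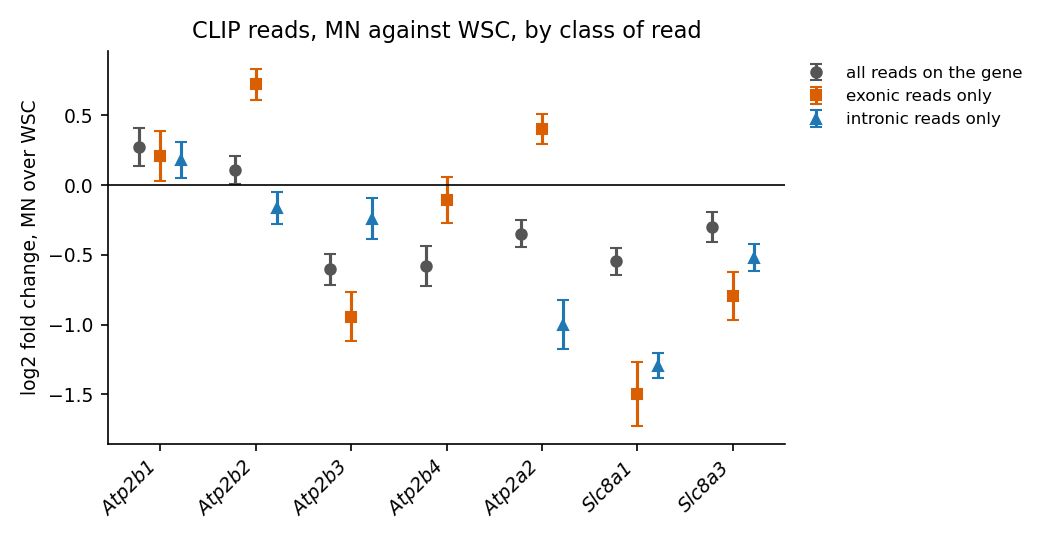
Log2 fold change of CLIP reads in MN over WSC (points, bars ± SE) for all reads of a gene (circles), exonic reads (squares) and intronic reads (triangles, not tested for Atp2b4). Slc8a1 and Slc8a3 are below 0 for all 3, while Atp2a2 is above 0 for exonic reads and below 0 for the others.

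Of the 38 related genes, 17 were tested in the fit of all CLIP reads, of which 9 were higher and 3 lower in MN, with a median log2 fold change of 0.45, against 27.6% higher, 29.2% lower and a median of -0.02 over all genes tested. The release channels Ryr3 (1.05 ± 0.10, SE, adjusted p = 1.51e-11) and Itpr1 (0.63 ± 0.14) and the uniporter gene Mcu (0.75 ± 0.16) were among the higher. Calm3 (-1.03 ± 0.12) and Slc24a2 (-0.35 ± 0.09) were among the lower, while Calm2 was higher (0.47 ± 0.13). Cell type markers beside these values were, for glia, Gfap and Aqp4 lower in MN (-0.77 ± 0.19 and -0.73 ± 0.15) and Mbp not past the threshold (-0.11 ± 0.21). Their part in the members' values was not tested.

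Within each gene the reads gathered at a few places, and these are shown as sequence because NOVA is known to bind YCAY, a tetramer of CA between pyrimidines, which in DNA letters is TCAT or TCAC as well as CCAT or CCAC. For each of the 7 members, the 50-nt tile with the most WSC reads and that with the most MN reads were taken, so the tiles were chosen on these counts and their shares carry no test. The 30 bases around the median read midpoint follow, 5′ to 3′ on the gene's strand in mm9, with YCAY in capitals. YCAY was searched on that strand only, overlapping copies included, and occurs at least once in 39.1% of the 36702 consecutive 30-base windows of the 10 genes and at least 3 times in 1.54%.
Atp2b2, 3′ UTR, chr6:113696664-113696693 (minus), top in both: cgtgcttcgaggaaatcaaacactttccgc
Atp2b3, coding exon, chrX:70815651-70815680 (plus), top in both: tTCATggcaacacccgagtttttgatcaat
Atp2b4, coding exon, chr1:135603524-135603553 (minus), top in both: CCATaataaCCATgaagttgcTCATaaacc
Atp2b1, coding exon, chr10:98477645-98477674 (plus), top in WSC: agcctcTCATcTCACgcacgatgatgaaga
Atp2b1, outside annotated exons, chr10:98454328-98454357 (plus), top in MN: tgcCCACatcttTCATtTCACtgttcctgc
Atp2a2, 3′ UTR, chr5:122903617-122903646 (minus), top in WSC: gcTCACagcttcTCACagcgcatgtttgac
Atp2a2, 3′ UTR, chr5:122907055-122907084 (minus), top in MN: gctgaatttTCACatgaacatattggctgg
Slc8a1, outside annotated exons, chr17:81787908-81787937 (minus), top in WSC: tgTCATgtTCACttaaactgctgatggaat
Slc8a1, outside annotated exons, chr17:81786055-81786084 (minus), top in MN: tcagtgaTCATaaCCATTCATtgtttaacc
Slc8a3, coding exon, chr12:82416460-82416489 (minus), top in WSC: TCATtggcatctgtgtctatgtgatcccag
Slc8a3, outside annotated exons, chr12:82357855-82357884 (minus), top in MN: atatatTCATttcagaatcagttgttggct

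The top tile was the same in MN and WSC for Atp2b2, Atp2b3 and Atp2b4. At the Atp2b2 tile in the 3′ UTR lay 309 of 2235 MN reads (13.8%) and 2658 of 20236 WSC reads (13.1%), in all 12 libraries, although the 30 bases shown hold no YCAY and the whole tile 1. The Atp2b3 tile, in a coding exon 679 nt from the annotated gene end, held 18 of 267 MN reads (6.74%) and 488 of 3781 WSC reads (12.9%), which is 20% and 18.2% of the exonic reads alone. The Atp2b4 tile, with 3 copies of YCAY in the bases shown, held 13 of 144 (9.03%) and 223 of 2096 reads (10.6%). At these 3 places the shares of exonic reads, pooled over libraries, lay side by side in MN and WSC. They were 17.5% and 15.2% for Atp2b2 and 12.3% and 11.9% for Atp2b4. The MN shares of Atp2b3 and Atp2b4 rest on 18 and 13 reads.

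In the other 4 members the top tiles of MN and WSC lay apart. The Slc8a3 tile with the most WSC reads, in a coding exon, held 107, 147, 108 and 71 reads in WSC replicates 1 to 4 and none in any of the 8 MN libraries. This was 433 of 6369 reads in WSC (6.80%) and 0 of 534 in MN, which allows a share of up to 0.562%. Counted over exonic reads alone it was 13.5% in WSC and 0 of 115 in MN, which allows up to 2.61%. These limits cover counting error only. The Slc8a3 tile with the most MN reads, outside annotated exons, held 28 MN reads (5.24%) from 6 libraries and 206 WSC reads (3.23%).

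The top WSC tile of Slc8a1, near the gene's 3′ end, held 872 reads in WSC (6.58%) and 19 in MN (2.01%), the latter from 3 of the 8 libraries only, whereas the top MN tile, with 4 copies of YCAY, held 25 MN reads (2.64%) and 293 WSC reads (2.21%). For Atp2a2 the top WSC tile lay 100 nt from the annotated gene end and held 11.7% of WSC and 5.46% of MN reads, while the top MN tile, further upstream in the 3′ UTR, held 7.55% and 7.96%. For Atp2b1 the coding tile held 185 WSC reads (5.21%) and 3 MN reads (0.691%), and the tile outside annotated exons 44 (1.24%) and 13 (3.00%). The lower exonic share of all genes in MN runs beside the differences at the Slc8a3 and Atp2b1 coding tiles, and its part in them was measured only through the shares of exonic reads, which for the Atp2b1 tile were 8.33% in WSC and 1.961% in MN.

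Of the 12 cassette exons, 9 had at least 10 junction reads in each RNA-seq library and 5 of these had a mean inclusion rate from 5% to 95%, where the rate sets the average of both inclusion junctions against the skipping junction. They are shown because splicing at these places is known to change the pump's calmodulin-binding tail (the PMCA exons) or the large cytosolic loop of NCX1 (the Slc8a1 exons). They are given 5′ to 3′ on the gene's strand in mm9, with YCAY in capitals.
Atp2b1, chr10:98481912-98482065 (plus): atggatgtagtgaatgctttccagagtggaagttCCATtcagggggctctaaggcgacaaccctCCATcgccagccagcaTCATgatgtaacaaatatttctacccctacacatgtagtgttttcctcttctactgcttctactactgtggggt
Atp2b3, chrX:70805203-70805356 (plus): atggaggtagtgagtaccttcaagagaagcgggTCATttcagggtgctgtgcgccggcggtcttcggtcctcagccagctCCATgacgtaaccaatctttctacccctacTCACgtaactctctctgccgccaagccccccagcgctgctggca
Atp2b4, chr1:135608219-135608399 (minus): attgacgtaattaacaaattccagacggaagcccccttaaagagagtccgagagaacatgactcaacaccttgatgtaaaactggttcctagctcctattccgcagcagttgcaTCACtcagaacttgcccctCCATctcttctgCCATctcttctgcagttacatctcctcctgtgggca
Slc8a1, chr17:81841543-81841563 (minus): ccctgttgttgaatgagcttg
Slc8a1, chr17:81837085-81837153 (minus): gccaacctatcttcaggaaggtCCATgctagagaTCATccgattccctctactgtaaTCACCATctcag

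The PMCA exons are 154 nt (Atp2b1 and Atp2b3) and 181 nt (Atp2b4) long, so none is a multiple of 3 and skipping shifts the reading frame, whereas the Slc8a1 exons of 21 and 69 nt keep it. The 2 exons of 154 nt had the same base at 98 positions without a gap (63.6%). The Atp2b3, Atp2b4 and both Slc8a1 exons are annotated coding exons, while the Atp2b1 exon is not an exon of the annotation used. Each PMCA exon held 3 copies of YCAY, and at least 3 were found in 48.3% (154 nt) and 58.5% (181 nt) of cassette exons within 10% of the length. The Slc8a1 exon of 69 nt held 4 copies, reached by 2.498% of exons within 10% of its length, and 14 copies in the 400 nt upstream, reached by 2.02% of 12255 exons with a median of 6. The Slc8a1 exon of 21 nt held none.

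In both libraries each of the 3 PMCA exons had a higher inclusion rate than the Slc8a1 exons of 21 and 69 nt. Intervals here and below count the mean of both inclusion junctions plus the skipping junction, which is fewer than the junction reads given beside them. The Atp2b1 exon was included at 70.6% in the male (95% Wilson interval 63.8% to 76.5%, 336 junction reads) and 61.02% in the female library (53.7% to 67.9%, 285 reads). The Atp2b3 exon stood at 60.2% (53.4% to 66.6%, 330 reads) and 63.2% (56.1% to 69.7%, 310 reads). Both exons were thus included more often than skipped, with mean rates of 65.8% ± 6.75 and 61.7% ± 2.10 (SD, n = 2), and their intervals overlapped between the libraries.

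The Atp2b4 exon differed between the libraries, at 59.7% in the male (48.6% to 70.0%, 123 junction reads) and 91.7% in the female (78.2% to 97.1%, 69 reads), with 31 and 3 reads on the skipping junction. Among the 9 member exons tested it alone passed (two-sided Fisher's exact test on the deposited inclusion counts, which add reads on the exon body, and skipping counts, adjusted p = 0.0110 over 9396 exons, false discovery rate 0.1, and 0.0144 with junction reads only), against 4.26% of all exons tested. The test covers the counting error of these 2 libraries, with no spread between animals, and compares neither the sexes nor groups of mice. The other 4 exons gave adjusted p from 0.294 (Atp2b1) to 1.

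The Slc8a1 exons were mostly skipped. The exon of 21 nt was included at 15.04% (7.98% to 26.6%, 65 junction reads) and 20% (8.86% to 39.1%, 30 reads) and the exon of 69 nt at 26.1% (17.7% to 36.8%, 99 reads) and 15% (5.24% to 36.04%, 23 reads) in the male and female library. In the exon of 69 nt the inclusion junctions were uneven, with 4 and 37 reads in the male library, which alone would give 6.45% and 38.9%. Another Slc8a1 exon, of 15 nt, had 16 and 8 junction reads and rates of 60% and 60% (31.3% to 83.2% and 23.1% to 88.2%).

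**Figure D5:**
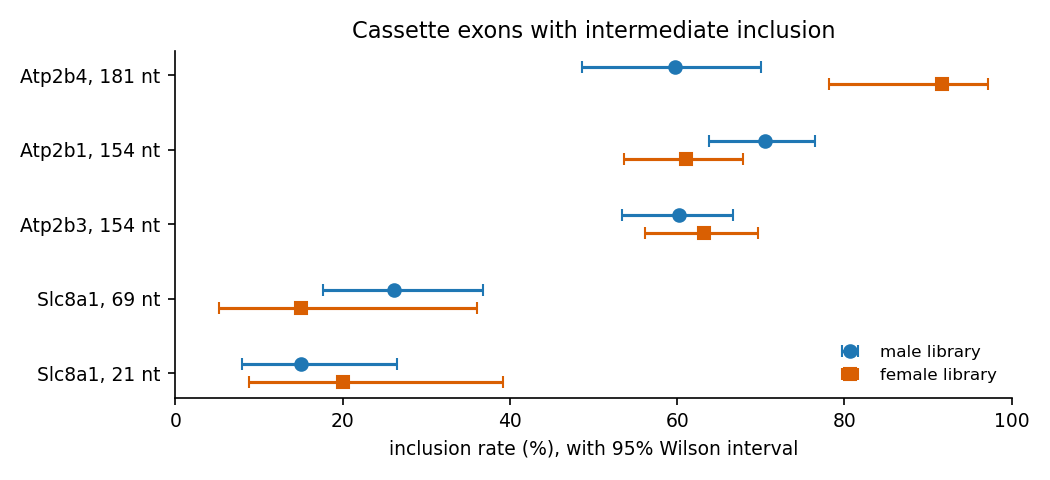
Inclusion rate (%) of the 5 cassette exons with intermediate inclusion in the male (circles) and female (squares) WSC RNA-seq libraries, with 95% Wilson intervals. The Slc8a1 exons lie near 15% to 26%, the PMCA exons at or above 59.7%, and the intervals of the Atp2b4 exon do not overlap.

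The remaining exons were almost always included or too thinly covered. Both Atp2a2 exons (336 and 134 nt), the Atp2b3 exon of 192 nt and the Slc8a2 exon of 18 nt had rates of 93.5% to 100% in each library, with 0 to 4 reads on the skipping junction. The Atp2a2 exon of 134 nt had 1333 and 1209 reads on one inclusion junction but 1 and 1 on the other. Its rate therefore does not show that this exon was joined on both sides. The Atp2a3 exon of 73 nt had 9 and 8 junction reads and no skipping, and the Atp2a1 exon of 42 nt no junction read at all. The rates cover counting error only.

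CLIP reads within 400 nt of these exons were too few for the planned comparison. None of the member windows was among the 39, of 12255, that passed the filter on low counts in the fit of all 12 libraries. The window of the Atp2b1 exon held 19 of 434 MN reads (4.38%) and 64 of 3548 WSC reads (1.80%), that of the Atp2b3 exon of 154 nt 7 (2.62%) and 92 (2.43%), and that of the Atp2b4 exon 9 (6.25%) and 163 (7.78%). The Slc8a1 windows held 1 to 3 MN reads and 5 to 30 WSC reads. With no filter on low counts in the fit of all 12 libraries, 9 member windows were tested and none passed, while 315 of all 9134 windows did. With the MN libraries of replicates 3 and 4 only, 5 member windows were tested and 3 passed at a false discovery rate of 0.1, against 41.8% of the 498 windows tested then. Relative to the rest of their gene, the Atp2a2 windows (336 and 134 nt) were lower in MN (log2 fold change -2.16 ± 0.82 and -1.69 ± 0.72, SE, adjusted p = 0.0280 and 0.0563) and the window of the Atp2b3 exon of 192 nt higher (1.11 ± 0.53, adjusted p = 0.0905). The Atp2b1 and Atp2b4 windows did not pass (0.87 ± 0.61 and -0.63 ± 0.64, adjusted p = 0.255 and 0.452). These values rest on few reads, the Atp2a2 windows of 336 and 134 nt holding at most 1 and 2 reads in an MN library and that of the Atp2b3 exon of 192 nt at most 13. In a WSC library the Atp2a2 windows held 15 to 46 and 20 to 69 reads. They passed the filter on low counts through WSC, the group where they are higher, so their calls as lower in MN are no support.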

How the data were processed

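The 12 CLIP libraries and 2 RNA-seq libraries of mouse spinal cord were used. Per the labels and methods, the authors mapped CLIP reads to mm9 with novoalign, removed reads upstream of GTGTC-like pentamers and collapsed PCR copies by the random barcode; the deposited read tables hold 1 unique read per line and a score, not used here. For RNA-seq the authors mapped trimmed poly(A) reads with OLego and deposited read counts and RPKM values per gene and read counts per cassette exon junction, made with Quantas from unambiguous reads.

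CLIP read midpoints were counted here, strand-specifically, on the span of 22380 protein-coding GENCODE vM1 genes, leaving out positions shared by genes. Counts were tested with edgeR 4.0.16 (filterByExpr, TMM, quasi-likelihood, mean of both lines against WSC), with DESeq2 1.42.0 as an alternative, in R 4.3.3. Normalised CPM are reads on a gene scaled to the TMM-adjusted reads on all genes. Exonic reads have their midpoint in an annotated exon. Exon coordinates were set by matching the offsets in exon names to annotated exon ends; 29 of 13189 exons could not be placed. Exon counts were compared with scipy 1.17.1. The count and exon steps were tested on simulated data. The labels call the CLIP libraries biological replicates. Read depth sets the precision: intervals and limits at 0 (3 counts) cover counting error only. All 10 genes are named; exons reaching 10 junction reads in both libraries with a mean inclusion of 5% to 95% are given in full, and up to 3 related genes per subgroup by mean RPKM; Mcu, Ryr3 and the tiles were added with values in view. The members, lists and tests were chosen with earlier results of these data known. Missing from the tables were Micu3, Mrln and Strit1 of the related genes; others were matched by NCBI gene identifier through RefSeq names (GRCm38.p6). Alternatives covered the replicate block, filters, normalisation, read class, window size, MN replicates 3 and 4 only, each line alone and leaving out each library. Some genes of the related and marker lists are not reported here.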

Additional observations from a re-analysis of the deposited data

Results flagged for a closer look

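Of 46 groups of 4 libraries, 3 held a library far from the other 3 by Dixon's ratio, which chance alone gives in about 1 of 20 groups. Atp2b1 stood at 685 normalised CPM in MN line 17 replicate 1 (34 reads), against 198 to 250 in the other line 17 libraries. Atp2b2 stood at 1379 in MN line 6 replicate 1 (99 reads), against 1440 to 1451. The exonic share of Atp2b4 was 88.6% in WSC replicate 3, against 90.0% to 90.2%. No member had all libraries of one MN line above the WSC mean and all of the other line below it.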

How the results depend on the processing

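Replicate numbers were not taken to pair the libraries: deviations from group means correlated at 0.05 to 0.20 between same-numbered libraries of lines 6 and 17, at -0.07 to 0.03 with WSC. Libraries of lines 6 and 17 with the same number shared a sequencing instrument by their read names, and line 6 libraries correlated best with their own number in line 17 except for replicate 3. With the replicate block, 3 members in place of 4 were called lower in MN, Atp2b4 being lost (-0.49, adjusted p = 0.0156), and 2086 genes in place of 2578 were called. Of all 4536 genes tested, 1097 were lower with it. The block also joined WSC libraries to MN libraries of the same number. Leaving out each library in turn left 3 to 5 members called lower and none higher. Genes called lower then ran from 966 of 3894 tested (without line 17 replicate 4) to 1554 of 5294 (without line 17 replicate 1). Exonic reads alone called 2 members higher, with Atp2a2 reversed to 0.40 on nearly the same reads, scaled to the exonic total. DESeq2, its size factors, no filter and MN replicates 3 and 4 only each called 5 lower, adding Slc8a3. Of all genes tested, these settings called 1267 of 4536, 1394 of 4536, 2643 of 16430 and 1910 of 8925 lower, in that order. Atp2b2, never called under all reads, reversed to -0.15 without the filter and to -0.16 in intronic reads. Line 6 alone called 2 members lower, against 930 of all 4536 genes tested. No filter moved the median of all genes with reads in both groups to -0.16, and the members are to be read against it. With MN replicates 3 and 4 only, 3 member windows passed in place of 0, while with no filter on low counts none of 9 passed. The number of windows called ranged from 11 to 44 when 1 library was left out, against 21 with all. In RNA-seq, members past the fold, higher in the male library, were 3 with no RPKM filter (Slc8a2, Atp2a3 and Atp2a1) and 2 at the lower fold that was tried (Slc8a2 and Atp2b4). Inclusion counts as given sum both inclusion junctions, in place of averaging them, and add reads on the exon body. With these and the skipping counts, mean inclusion was 85.5% for the Atp2b1 and 82.1% for the Atp2b3 exon. It was 37.0% for the Slc8a1 69-nt and 29.7% for the Slc8a1 21-nt exon, the latter with 0 reads on its body in both libraries. The call of the Atp2b4 exon was kept with junction reads only and at 20 junction reads. Depth limits the MN values: Atp2b4 rests on 144 and Atp2b3 on 267 MN reads.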
